A study of Sus scrofa with 6 samples.

Results

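The eicosanoid synthesis enzymes were followed in the lungs of pigs after extended partial hepatectomy (ePHx). The list named 10 genes, namely ALOX5, ALOX5AP, LTA4H, ALOX12, PTGS1, PTGS2, PTGES, PTGDS, TBXAS1 and HPGD. Main probe sets were matched to 9 of them, out of 11752 genes measured, and PTGDS was not analysed here. The members were matched by gene name, and the list was chosen with earlier results of these data known. The animals were adult male German landrace pigs. In the control group (n = 3) they were given Ringer solution as vehicle, and in the MSC-treated group (n = 3) mesenchymal stromal cells from porcine bone marrow, which had been turned towards hepatocytes in culture, were infused through a central vein. All 6 animals had undergone liver resection, and lung tissue was taken at the end of the intensive care that followed. Sham-operated animals and livers were not analysed here. Each array name carried a different animal number, and the replicates were taken as separate animals, although the wording of Methods leaves unclear whether some organ samples came from the same animal.

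Eicosanoids are signalling lipids made from arachidonic acid that phospholipases release from membranes. The 5-lipoxygenase branch gives leukotrienes, which draw in leukocytes and constrict airways. The cyclooxygenase branch gives prostaglandins and thromboxane, which act on vessel tone, platelets and the airways. The lung both forms these lipids, in macrophages, other leukocytes, platelets, endothelium and epithelium, and removes circulating prostaglandins by uptake and oxidation.

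Values are log2 signals after RMA, so that a difference of 1 is a doubling in linear signal, and they are compared between arrays for the same probe set only. The array names of control replicates 1 and 3 and MSC-treated replicate 2 contain the letters b-T, and those of control replicate 2 and MSC-treated replicates 1 and 3 do not. No label says what the letters mean. Arrays with the letters are called marked here and the remaining 3 are called the other arrays. The mark is given before the results because several of the enzymes followed it. The surfactant genes SFTPA1, SFTPB and SFTPC, markers of alveolar type 2 cells, lay between 11.31 and 12.78 in all 6 arrays, so that defining markers of lung were present in each. Correlations between arrays across genes lay between 0.963 and 0.989. The 23 probe sets for antigenomic sequence, which measure background, averaged 3.88 to 4.24 per array. That average was 3.88 to 4.03 in the marked and 4.14 to 4.24 in the other arrays.

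Whether the infusion of cells altered the lung expression of these enzymes was asked first. None of the 9 enzymes passed the thresholds of an unadjusted limma p under 0.05 and an absolute log2 difference of at least 0.5 between MSC-treated and control lungs. Of all 11752 genes 219, or 1.86%, passed them, 77 higher (0.655%) and 142 lower (1.21%) in MSC-treated lungs. After Benjamini-Hochberg adjustment in limma 0 genes remained at an adjusted p under 0.05, while 323 genes (2.75%) had an unadjusted p under 0.05. The median difference over the enzymes was -0.31, with 7 of 9 negative, beside a median of 0.00 over all genes. For each of the 9 enzymes the values of the groups overlapped, whereas the groups did not overlap for 874 genes, or 7.44% (3.61% higher and 3.83% lower). In tissue samples of this kind, fewer cells of a type and less RNA per cell cannot be told apart.

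**Figure D1:**
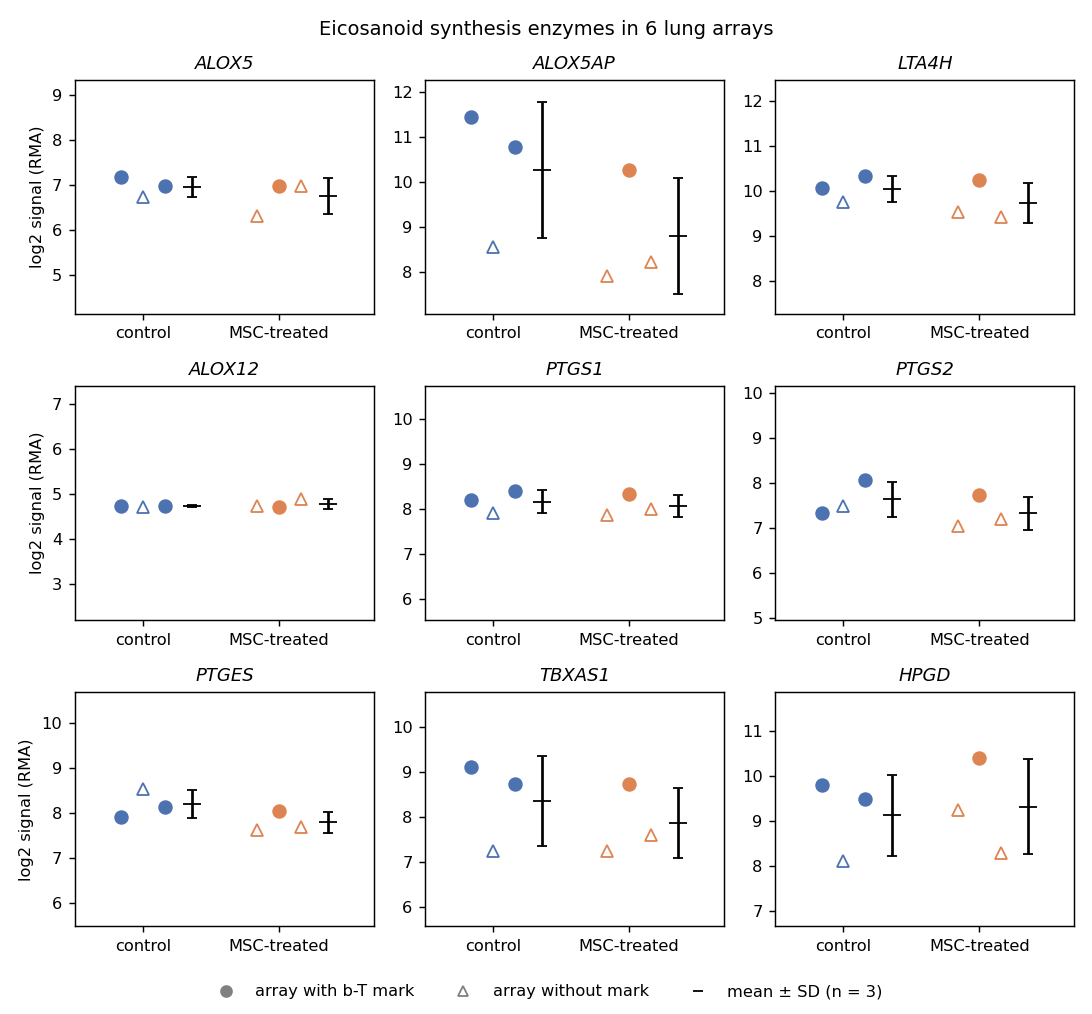
log2 signal (RMA) of the 9 measured enzymes, 1 panel per gene, with control arrays in blue and MSC-treated arrays in orange, in the order of replicates 1, 2 and 3. Filled circles are arrays with the b-T mark, open triangles arrays without it, and black bars the mean ± SD of each group (n = 3); all panels span the same number of log2 units. For ALOX5AP, TBXAS1, HPGD, LTA4H and PTGS1 every filled circle lies above every open triangle, while control and MSC-treated arrays overlap in all panels.

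The 5-lipoxygenase branch was taken first. ALOX5 encodes 5-lipoxygenase, which makes leukotriene A4. Its log2 signal was 7.16, 6.72 and 6.96 in control replicates 1, 2 and 3 and 6.30, 6.98 and 6.98 in MSC-treated replicates 1, 2 and 3. Only MSC-treated replicate 1 stood below the controls, and the other MSC-treated arrays lay inside their range. The means were 6.95 ± 0.22 and 6.75 ± 0.40 (SD, n = 3 each). The log2 difference was -0.19 (SE 0.23, 95% confidence interval -0.73 to 0.35, limma p = 0.437), and the exact permutation test gave p = 0.7. Without MSC-treated replicate 1 the difference was 0.04. The 11 probes for ALOX5 carry the cross-hybridization class 3 of the array annotation, so that some of them may also match other sequences. The probe set was designed on a transcript at chr14:98902243-98950139, minus strand, of Sscrofa10.2.

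ALOX5AP encodes FLAP, the membrane protein that presents arachidonic acid to 5-lipoxygenase. Its log2 signal was 11.44, 8.56 and 10.78 in control replicates 1, 2 and 3 and 7.90, 10.26 and 8.23 in MSC-treated replicates 1, 2 and 3. The 3 arrays above 10 were the marked ones in both groups, and the values of all marked arrays lay above those of all other arrays. With 3.54 log2 units between its lowest and highest array ALOX5AP had the widest range of the 9 enzymes, for which the median range was 0.92 (0.67 over all genes). The control mean was 10.26 ± 1.51 and the MSC-treated mean 8.80 ± 1.28 (SD, n = 3 each). This gave a log2 difference of -1.46 (SE 0.84, 95% confidence interval -3.40 to 0.48, limma p = 0.12) and an exact permutation p = 0.2. The test was past the thresholds without control replicate 2, at -2.31, and without MSC-treated replicate 2, at -2.19, the single array of each group whose mark differed from that of the other two.

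LTA4H encodes leukotriene A4 hydrolase, which forms the neutrophil attractant leukotriene B4. In control replicates 1, 2 and 3 its log2 signal was 10.06, 9.75 and 10.33, and in MSC-treated replicates 1, 2 and 3 it was 9.53, 10.25 and 9.41. Again the 3 marked arrays were the highest and the groups overlapped by treatment. The difference between MSC-treated and control lungs was -0.32 (SE 0.26, 95% confidence interval -0.93 to 0.30, limma p = 0.266; exact permutation p = 0.3). Without MSC-treated replicate 2 it was -0.58 and past the thresholds. The transcript behind this probe set lies at chr5:91688949-91721002 on the plus strand of Sscrofa10.2.

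ALOX12 encodes the 12-lipoxygenase known from platelets. Its probe set is listed in the files under the placeholder symbol LOC100620614, which the RefSeq table now names ALOX12. The signal was 4.74, 4.71 and 4.73 in control and 4.72, 4.70 and 4.89 in MSC-treated replicates 1, 2 and 3. These values lay close to the background of 3.88 to 4.24 and close to each other, and detection was not tested. The difference of 0.04 (SE 0.15, 95% confidence interval -0.30 to 0.38, limma p = 0.783; exact permutation p = 0.9) changed sign without MSC-treated replicate 3, to -0.02. The probe set that the files call ALOX12 belongs to a gene now named ALOX15 and is counted with the other pathway genes. It was designed at chr12:54502074-54510831, plus strand, of Sscrofa10.2 and gave 4.44, 4.10 and 3.75 in control and 4.10, 4.17 and 4.05 in MSC-treated arrays. These values too lay within or near the background range, and detection was not tested.

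The cyclooxygenase branch starts with PTGS1 and PTGS2, the constitutive and the inducible cyclooxygenase. For PTGS1 the log2 signal was 8.20, 7.91 and 8.41 in control replicates 1, 2 and 3 and 7.87, 8.34 and 8.0 in MSC-treated replicates 1, 2 and 3. For PTGS2 it was 7.33, 7.49 and 8.07 in control and 7.03, 7.73 and 7.20 in MSC-treated replicates. PTGS2 was highest in control replicate 3 and lowest in MSC-treated replicate 1, with overlap between the groups. PTGS1 differed by -0.10 between MSC-treated and control lungs (SE 0.20, 95% confidence interval -0.56 to 0.37, limma p = 0.645; exact permutation p = 0.7), and PTGS2 by -0.31 (SE 0.26, 95% confidence interval -0.92 to 0.30, limma p = 0.271; exact permutation p = 0.4). The sign for PTGS1 turned without control replicate 3, to 0.02, and with the mark in the model, to 0.04.

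PTGES encodes the inducible microsomal prostaglandin E synthase. Its log2 signal was 7.91, 8.53 and 8.13 in control replicates 1, 2 and 3 and 7.63, 8.05 and 7.68 in MSC-treated replicates 1, 2 and 3. The highest of the 6 values was that of control replicate 2, and only MSC-treated replicate 2 reached into the control range. The means were 8.19 ± 0.31 and 7.79 ± 0.23 (SD, n = 3 each), and PTGES had the smallest limma p of the 9 enzymes. Its difference was -0.40 (SE 0.21, 95% confidence interval -0.89 to 0.09, limma p = 0.0987; exact permutation p = 0.2). It lay between -0.54 and -0.23 when each array was left out. A second PTGES probe set gave 6.71, 7.64 and 7.07 in control and 6.89, 6.88 and 6.77 in MSC-treated arrays, a difference of -0.30. The brighter probe set, used here, has cross-hybridization class 3.

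TBXAS1 encodes thromboxane A synthase, known from platelets and macrophages. Its log2 signal was 9.10, 7.23 and 8.72 in control replicates 1, 2 and 3 and 7.25, 8.72 and 7.60 in MSC-treated replicates 1, 2 and 3. As for ALOX5AP, control replicate 2 lay with MSC-treated replicates 1 and 3, and MSC-treated replicate 2 lay with control replicates 1 and 3. The treatment difference was -0.50 (SE 0.54, 95% confidence interval -1.75 to 0.75, limma p = 0.384; exact permutation p = 0.6). Without control replicate 2 it was -1.06 and past the thresholds. A second TBXAS1 probe set, designed at chr18:10223766-10394083 on the minus strand of Sscrofa10.2, read 7.69, 5.81 and 7.30 in control and 6.46, 7.31 and 6.55 in MSC-treated arrays. It kept the order of marked above other arrays, with a treatment difference of -0.16.

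HPGD encodes 15-hydroxyprostaglandin dehydrogenase, which inactivates prostaglandins and is abundant in lung. Its log2 signal was 9.81, 8.11 and 9.48 in control replicates 1, 2 and 3 and 9.25, 10.41 and 8.29 in MSC-treated replicates 1, 2 and 3. The lowest value of all came from a control and the highest from an MSC-treated array, and the 3 marked arrays were the top 3. The means of 9.13 ± 0.90 and 9.32 ± 1.06 (SD, n = 3 each) differed by less than the spread within either group. The difference was 0.19 (SE 0.60, 95% confidence interval -1.19 to 1.57, limma p = 0.76; exact permutation p = 0.9). It turned to -0.36 without MSC-treated replicate 2 and to -0.32 without control replicate 2. With 3 arrays against 3 the smallest exact permutation p is 0.1, so that no single enzyme could pass 0.05 by that test.

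**Figure D2:**
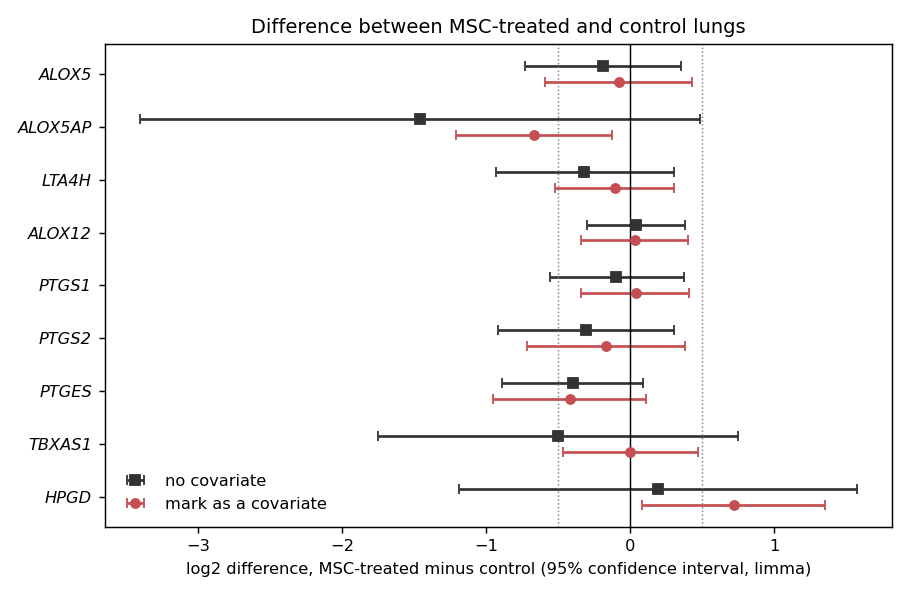
log2 difference between MSC-treated and control lungs for the 9 enzymes, with 95% confidence intervals from limma, without a covariate (black squares) and with the b-T mark as a covariate (red circles); dotted lines stand at ±0.5. Every black interval includes 0, the widest being that of ALOX5AP (-3.40 to 0.48), while the red intervals of ALOX5AP (-1.21 to -0.13) and HPGD (0.08 to 1.35) do not.

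Since 2 of 3 control arrays and 1 of 3 MSC-treated arrays were marked, the treatment was also fitted with the mark as a covariate. Then 2 of the 9 enzymes passed the thresholds, ALOX5AP lower and HPGD higher in MSC-treated lungs, beside 342 of all genes (2.91%; 197 or 1.68% higher and 145 or 1.23% lower). ALOX5AP differed by -0.67 (SE 0.23, 95% confidence interval -1.21 to -0.13) and HPGD by 0.72 (SE 0.27, 95% confidence interval 0.08 to 1.35), each with a limma adjusted p = 0.988. No gene had an adjusted p under 0.05 in limma in this fit, while 491 (4.18%) had an unadjusted p under 0.05. Within the marked arrays ALOX5AP was -0.85 and within the other arrays -0.49, and HPGD was 0.77 and 0.66. Each within-mark value sets 1 array against 2. The call for ALOX5AP was lost without MSC-treated replicate 1 (-0.62) or replicate 2 (-0.49), and that for HPGD without MSC-treated replicate 1 (0.52) or 2 (0.66) or control replicate 2 (0.77) or 3 (0.64). With the mark in the model the TBXAS1 difference was 0.00 and that of LTA4H -0.11, while that of PTGES was -0.42 (95% confidence interval -0.95 to 0.11).

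The marked arrays were next compared with the other arrays, with treatment in the model. Of the 9 enzymes 4 passed the same thresholds as higher in the marked arrays and 0 as lower, beside 1004 higher (8.54%) and 616 lower (5.24%) of all genes, 13.8% in both directions. Their median difference was 0.42, against -0.01 over all genes. At an adjusted p under 0.05 in limma 3 of the enzymes were higher, beside 96 higher (0.817%) and 0.97% in both directions of all genes, and 16.9% of all genes had an unadjusted p under 0.05. For 5 enzymes, ALOX5AP, LTA4H, PTGS1, TBXAS1 and HPGD, all marked arrays lay above all other arrays, which was so for 1434 genes (12.2%). Each of these 5 reached an exact permutation p = 0.1, the smallest possible.

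ALOX5AP averaged 10.83 ± 0.59 in the marked and 8.23 ± 0.33 in the other arrays (SD, n = 3 each). The log2 difference was 2.37 (SE 0.23, 95% confidence interval 1.83 to 2.92, limma adjusted p = 0.0245), a 5.18-fold higher linear signal. It was 2.55 within the control and 2.20 within the MSC-treated lungs. TBXAS1 averaged 8.85 ± 0.22 against 7.36 ± 0.21 (SD, n = 3 each), a log2 difference of 1.49 or 2.81-fold (SE 0.20, 95% confidence interval 1.02 to 1.96). Its limma adjusted p was 0.0298, and its second probe set differed by 1.16 in the same direction. HPGD averaged 9.90 ± 0.47 against 8.55 ± 0.61 (SD, n = 3 each), with a log2 difference of 1.59 (SE 0.27, 95% confidence interval 0.95 to 2.22, limma adjusted p = 0.0495). These 3 enzymes passed the thresholds with each of the 6 arrays left out in turn.

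Differences of the remaining enzymes were smaller. LTA4H, at 10.21 ± 0.14 in the marked and 9.56 ± 0.17 in the other arrays (SD, n = 3 each), was 0.61 higher (SE 0.18, limma adjusted p = 0.147). Without MSC-treated replicate 2 the LTA4H difference was 0.44 and no longer past the thresholds. PTGS1 differed by 0.40 (SE 0.16, 95% confidence interval 0.03 to 0.78), below the fold threshold although its arrays did not overlap. PTGS2 at 0.42 (95% confidence interval -0.14 to 0.97) and ALOX5 at 0.34 (95% confidence interval -0.17 to 0.85) did not pass, and PTGS2 passed only without control replicate 1, at 0.60. ALOX12 at -0.04 and PTGES at -0.06 were close to 0. For PTGES the marked arrays were 0.51 below control replicate 2 within the controls and 0.39 above the others within the MSC-treated lungs, so that the sign was not shared.

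**Figure D3:**
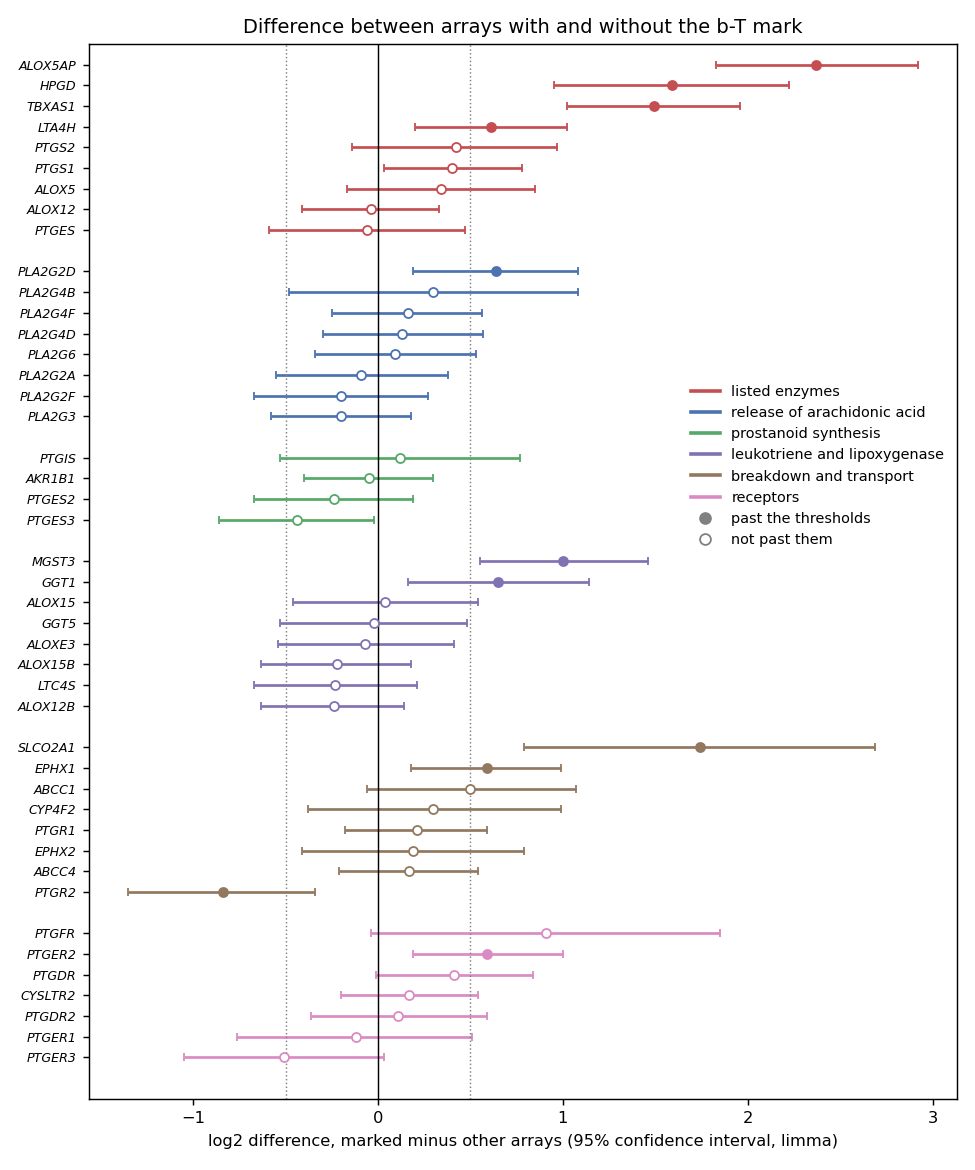
log2 difference between marked and other arrays, with treatment in the model, for the 9 enzymes (red) and the 35 other measured genes of the pathway by group, with 95% confidence intervals from limma. Filled points passed p under 0.05 and an absolute log2 difference of at least 0.5 (dotted lines); ALOX5AP (2.37), SLCO2A1 (1.74), HPGD (1.59) and TBXAS1 (1.49) lie farthest to the right and PTGR2 (-0.84) farthest to the left.

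The rest of the pathway was read from a list of 62 genes, of which 35 were measured. Between MSC-treated and control lungs 0 of the 35 passed the thresholds, with a median difference of -0.06. The genes that release arachidonic acid (8 measured of 16) gave the smallest p for the secreted phospholipase gene PLA2G3, at 0.23 (SE 0.17). PLA2G4B followed at -0.37 (SE 0.33). Its signal in MSC-treated replicate 1 was 4.11, within the background range of 3.88 to 4.24, and its difference reached 0.03 when 1 array was left out. Among prostanoid synthases (4 of 8) the prostacyclin synthase gene PTGIS was at -0.20 (SE 0.26). Of the leukotriene and lipoxygenase genes (8 of 11) the smallest p was that of MGST3, a microsomal glutathione transferase, at -0.67 (SE 0.39). The leukotriene C4 synthase gene LTC4S was at -0.15 (SE 0.19). With 1 array left out the difference reached 0.11 for PTGIS and 0.03 for LTC4S, so that both signs turned. Of the breakdown and transport genes (8 of 12) the epoxide hydrolase genes EPHX2 and EPHX1 were at -0.38 (SE 0.25) and -0.35 (SE 0.25), and the transporter gene ABCC4 at 0.23 (SE 0.16). Among receptor genes (7 of 15) the smallest p was that of PTGER2, for prostaglandin E2, at -0.36 (SE 0.26). The probe sets of PTGER2 and PLA2G3 have cross-hybridization class 3. MGST3, SLCO2A1 at -0.88 (SE 0.70) and the receptor gene PTGFR at -0.56 were past the fold threshold but not past the p threshold, and the 95% confidence interval of each of these differences included 0.

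By the mark, 6 of the 35 genes passed the thresholds as higher and 1 as lower, beside 8.54% and 5.24% of all genes, with a median of 0.12. SLCO2A1, the transporter that takes prostaglandins into cells before HPGD oxidizes them, read 9.71, 7.0 and 9.35 in control and 6.96, 8.45 and 8.02 in MSC-treated replicates 1, 2 and 3. All its marked arrays were above all other arrays, and it was 1.74 higher in them (SE 0.41, limma adjusted p = 0.0931), or 0.96 and not past the thresholds without control replicate 2. MGST3 was 1.00 higher (SE 0.20, limma adjusted p = 0.0633), and it passed with each array left out. The prostaglandin reductase gene PTGR2 was lower by a log2 difference of -0.84 (SE 0.22, limma adjusted p = 0.117), also with each array left out. PLA2G2D (0.64), GGT1 (0.65), EPHX1 (0.59) and PTGER2 (0.59) were higher as well, and each missed the thresholds when 1 array was left out, control replicate 2 for the first 2 and MSC-treated replicate 2 for the others. In groups, 1 release gene, 0 prostanoid synthases, 2 leukotriene and lipoxygenase genes, 2 breakdown and transport genes and 1 receptor gene were higher.

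Markers of cells that make or meet eicosanoids were read beside these values. Of 65 measured markers (98 listed) 2 were higher and 5 lower in MSC-treated lungs, beside 0.655% and 1.21% of all genes. In the marked arrays 10 were higher and 7 lower by the same thresholds, beside 8.54% and 5.24% of all genes. Monocyte and macrophage markers, of which 7 of 10 were measured, had 3 higher in the marked arrays, CD68 by 1.49, MARCO by 1.41 and CD14 by 0.62, the last of which was lost without any 1 of 4 arrays. In the same list LYZ (-0.65) and MRC1 (-0.34) had negative differences that did not pass. Their summed linear signal was 6482 to 7433 in the marked and 4281 to 5551 in the other arrays, a ratio of 1.41. For the 9 enzymes the sum was 5187 to 6154 against 2252 to 2587, a ratio of 2.28. These sums give the brightest probe sets the most weight.

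Endothelial markers (5 of 7 measured) had 2 higher, TEK by 1.48 (limma adjusted p = 0.0245) and VWF by 1.09 (0.70 without control replicate 2), with sums of 5035 to 5757 against 3656 to 4419. In the same list PECAM1 (0.18), KDR (0.28) and CLDN5 (-0.24) did not pass, and the list median was 0.28. Platelet markers (6 of 10) had 1 higher, ITGB3 by 0.63, which missed the thresholds without any 1 of 3 arrays, and their sums were 372 to 443 against 315 to 335. Natural killer and cytotoxic cell markers (7 of 8) had 3 higher, NKG7 by 1.11, GZMB by 1.10 and PRF1 by 0.51 (0.13 without MSC-treated replicate 2, and lost without any 1 of 4 arrays), with sums of 790 to 1295 against 692 to 763. Neutrophil markers did not follow the mark as a list, since only CXCR2 of 7 was higher, by 1.64, and the sums overlapped at 1571 to 7608 against 2143 to 3249. Of the fibroblast and smooth muscle markers COL1A2, COL3A1 and TAGLN of 6 were lower, although these 3 missed the thresholds without MSC-treated replicate 2. Their list had sums of 7438 to 9072 against 9277 to 11400 and a median of -0.36. In it PDGFRA (0.39) had a positive difference and COL1A1 (-0.11) and ACTA2 (-0.04) were close to 0, none of them past the thresholds. Mast cell markers (5 of 9) had KIT and HDC lower, neither of them without control replicate 2, with sums of 683 to 757 against 806 to 1009, while MS4A2 (0.22), FCER1A (0.18) and GATA2 (0.24) had positive differences that did not pass and the list median was 0.18. Of the alveolar type 1 markers PDPN was lower (-1.19), 1 of 6, with CAV1 at 0.59 and a list median of -0.16, and of the airway markers KRT8 was lower (-1.02), 1 of 4, with FOXJ1 at 0.50, KRT5 at 0.34 and a list median of 0.04. The part of these cell types, and of the lower background of the marked arrays, in the differences of the enzymes was not tested.

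**Figure D4:**
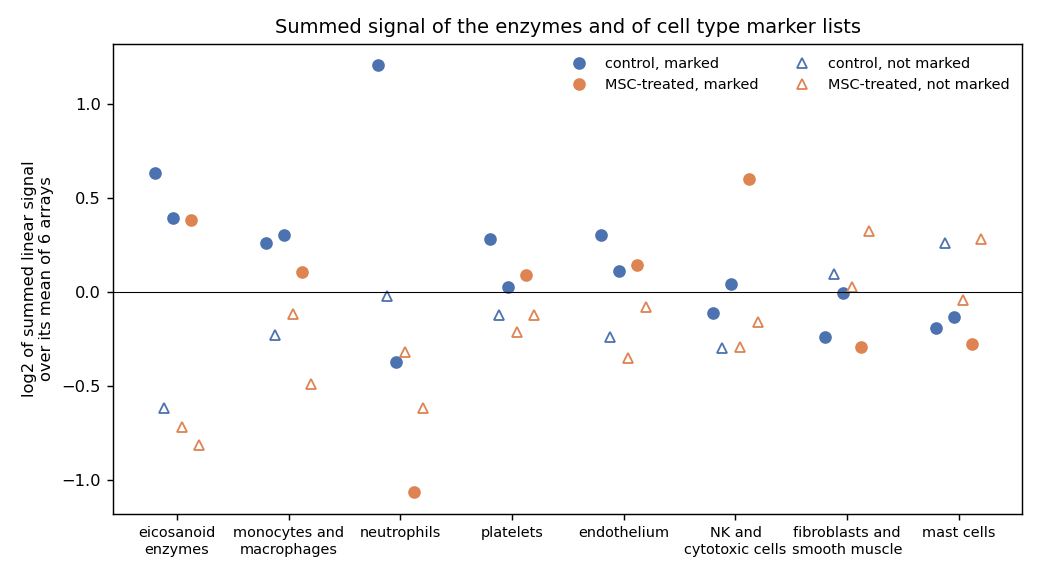
Summed linear signal of the 9 enzymes and of 7 cell type marker lists in each array, as log2 over the mean of the 6 arrays; blue is control, orange MSC-treated, filled circles are marked arrays and open triangles the others. The sums of the enzymes separate the marked from the other arrays (5187 to 6154 against 2252 to 2587). Those of macrophage, platelet, endothelial and cytotoxic cell markers do so by smaller steps, whereas those of neutrophil markers overlap. The sums of fibroblast and mast cell markers lie in the opposite order. Single markers differ: 1 of 5 endothelial markers has a negative difference, and 1 of 6 fibroblast and 3 of 5 mast cell markers have a positive one.

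By treatment, the neutrophil markers had 1 of 7 lower in MSC-treated lungs, S100A12 by a log2 difference of -0.99 (SE 0.35, 95% confidence interval -1.80 to -0.17), which missed the thresholds without MSC-treated replicate 2 or 3 and was -0.58 without control replicate 1. Their summed signal was 7608, 3249 and 2540 in control and 2642, 1571 and 2143 in MSC-treated replicates 1, 2 and 3. The groups thus overlapped, and control replicate 1 alone stood far above the rest. For the enzymes the sums were 2587 to 6154 in control and 2252 to 5187 in MSC-treated lungs, a ratio of 0.71. Monocyte and macrophage markers had 0 of 7 past the thresholds by treatment, with sums of 5141 to 7433 and 4281 to 6482. The other markers lower in MSC-treated lungs were KRT5 of the airway (-0.94, SE 0.26), PPBP of platelets (-0.72, SE 0.30), PDGFRA of fibroblasts (-0.67, SE 0.22) and HBB of erythroid cells (-1.26, SE 0.49). In the platelet list and in the fibroblast and smooth muscle list 3 of 6 measured markers each had a positive difference. The medians of these lists were 0.01 and 0.04. The natural killer cell receptor genes KLRD1 (1.04, SE 0.44) and KLRK1 (1.02, SE 0.33) were higher. KLRD1 read 3.66, 3.86 and 3.56 in control replicates 1, 2 and 3, below the background of 3.88 to 4.24, and detection was not tested. In the same list NKG7 (-0.08), NCR1 (-0.02), PRF1 (0.12), GZMB (0.20) and KLRB1 (0.30) did not pass, and the list median was 0.20. KRT5 passed with each array left out, whereas PPBP passed in 2, PDGFRA in 4, HBB in 3, KLRD1 in 1 and KLRK1 in 5 of the 6 fits without 1 array. The KLRD1 difference was 0.47 and that of KLRK1 0.66 without MSC-treated replicate 2, that of PPBP -0.40 without MSC-treated replicate 3, and that of HBB -0.79 without MSC-treated replicate 1. The part of these markers in the treatment differences of the enzymes was not tested.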

How the data were processed

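RNA of lung tissue from 6 pigs had been measured on porcine whole-transcript arrays of Affymetrix, with 1 array per sample. The deposited signals are on the log2 scale. According to the submitters' notes the authors computed them with RMA in Affymetrix Expression Console 1.4. RMA subtracts background, forces 1 distribution on all arrays by quantile normalization and summarizes the probes of a set, and a shift common to most genes is thereby removed. A separate processing described in Methods, with another annotation and a batch correction by ComBat, is not part of these values. A further 6 signal columns, whose names match no label, were used only to tie the array name mark to the samples, by the identity of all 27558 values within 1e-06, and as the second table. The authors' fold changes and p-values in the tables were not used.

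Of 19124 main probe sets, 12904 were tied to 1 gene by file symbol (9115), updated symbol (75), gene ID (3131) or accession (583), with names updated through the RefSeq gene table. Several genes were given for 214, a symbol turned into a date for 6 and no gene for 6000. The probe set with the highest mean represented each of 11752 genes, 1052 of which had several. Linear models were fitted to all genes in limma 3.58.1 (R 4.3.3) with moderated variances and treatment as the only term, and p-values were adjusted by Benjamini-Hochberg over the whole table. Calls followed Methods, with p below 0.05 before adjustment and a log2 difference of 0.5 or more in size. Single enzymes were also compared by two-sided exact permutation tests. The number of arrays limits the precision.

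All measured enzymes are named. Of the other pathway genes, those past the thresholds and up to 3 per group with the smallest p are named, and ALOX15 for its former symbol. Of the markers, those past the thresholds by treatment or by the mark are named. In several lists, markers that did not pass are named beside them. The enzymes and lists were chosen with earlier results of these data known. The comparison of marked with other arrays, with treatment in the model, and its alternatives were chosen after seeing the data. Alternatives for treatment and for the mark were the second table, quantile normalization again, median centring and 75th percentile scaling. Both also had genes with a mean log2 of 5 or more, averaged probe sets, trended or robust variance, array weights and fits without 1 array at a time. The t-test of Methods, the mark fitted or subtracted beforehand and replicate number as a block were alternatives for treatment only. A fit without a treatment term was used for the mark only. Fits were tested on simulated data. Python 3.11.15 was used for tables and matplotlib 3.10.9 for plots.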

Additional observations from a re-analysis of the deposited data

How the results depend on the processing

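Of the 9 enzymes 0 passed the thresholds by treatment in the fit without a covariate, and 1 passed with array weights (ALOX5AP), 2 with the mark as a covariate and 2 with the mark removed first (ALOX5AP and HPGD). Removal first leaves the mark out of the fitted terms, which makes its p-values too low. With 1 array left out 0 to 2 passed: ALOX5AP and LTA4H without MSC-treated replicate 2, ALOX5AP and TBXAS1 without control replicate 2. The other pathway genes had 0 calls by treatment, 1 with array weights (SLCO2A1) and 0 to 3 with 1 array left out (3 without MSC-treated replicate 2, 1 without control replicate 2). Over all genes 219 calls became 342 with the mark as a covariate, 425 with it removed first, 0 at an adjusted p under 0.05, 2 by the methods' t-test and 0 after Benjamini-Hochberg adjustment of that, and 182 to 608 with 1 array left out (608 without MSC-treated replicate 2, 469 without control replicate 2). The 7 calls among cell type markers became 11 with the mark removed first, 0 at an adjusted p under 0.05 and 4 to 11 with 1 array left out (4 without MSC-treated replicate 3 or control replicate 1, 11 without control replicate 2). By the mark, the 4 enzymes became 3 to 5 with 1 array left out and 3 at an adjusted p under 0.05. The 7 other pathway genes became 11 with array weights, 0 at an adjusted p under 0.05 and 5 to 10 with 1 array left out. All genes went from 1620 to 114 at an adjusted p under 0.05 and to 913 to 2468 with 1 array left out (913 without control replicate 2, 2468 without MSC-treated replicate 3), and the 17 markers to 3 and to 14 to 21.

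By treatment signs turned for ALOX5 (-0.31 to 0.04 without 1 array), ALOX12 (-0.02 to 0.08), PTGS1 (0.04 with the mark fitted and 0.04 with it subtracted beforehand, range -0.23 to 0.02 without 1 array) and HPGD (-0.36 to 0.70, with -0.36 without MSC-treated replicate 2 and -0.32 without control replicate 2). Among the marked arrays alone the treatment difference was 0.03 for PTGS2, 0.03 for PTGES, 0.06 for LTA4H and -0.04 for ALOX12, and 0.04 for PTGS1 (0.03 among the others), and among the others alone 0.19 for TBXAS1, each opposite in sign to that over all arrays. By the mark signs turned for ALOX12 (-0.11 to 0.03 without 1 array) and PTGES (0.08 without a treatment term, -0.51 to 0.39 without 1 array). The cause was not tested. Same-numbered control and MSC-treated samples share only a number: the correlations of their deviations were -0.41, -0.49 and 0.06. With a replicate block 166 genes and 0 of the 9 enzymes passed by treatment, and no call of an enzyme changed.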

Other observations

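PTGES gave treatment differences of 0.03 among the marked and -0.87 among the unmarked arrays, each from 1 array against 2. PTGFR, the receptor gene for prostaglandin F2 alpha, read 8.36 in MSC-treated replicate 2 against 6.72 and 6.29 in MSC-treated replicates 1 and 3, and 7.38, 7.71 and 7.96 in the controls, so that the marked array stood apart within the MSC-treated lungs (by 1.85) and not within the controls (-0.04). Whether the mark acted differently in the groups was not tested.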
